A study of Homo sapiens with 9 samples.

Results

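Endothelin-1, the natriuretic peptides and angiotensin II are short peptide hormones that set vascular tone, and 8 of their genes are described here. They encode 2 peptides (EDN1, NPPB), 1 processing enzyme (ECE1) and 5 receptors (EDNRA, EDNRB, NPR2, NPR3, AGTR1). They were chosen with earlier results of these data known. Matching was by symbol, without use of the counts, and all 8 were found among the 36601 genes in the files. Of the 8, 7 passed the filter on low counts and were tested; EDNRB did not.

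The RNA came from LX2, an immortalised human line derived from hepatic stellate cells, the pericytes of the liver sinusoid, and was sequenced in 3 groups of 3 libraries. Every culture grew in medium with serum, received 20 nM siRNA by lipofection and was kept for 7 days. The groups differed in the siRNA, which was non-targeting (siNT), directed against YAP (siYAP) or directed against TAZ (siTAZ). YAP (gene YAP1) and TAZ (gene WWTR1) are coactivators of the Hippo pathway that reach DNA mainly through TEAD proteins. LX2 is a single line, the siRNA sequences are not given in the sources used here, and the labels do not say what separated the replicates, so each p-value reflects the spread among these libraries alone, which may be technical.

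Endothelin-1 is cut from a long precursor by furin-type proteases and made active by endothelin converting enzyme. It acts on the receptors ETA (EDNRA) and ETB (EDNRB), which couple to Gq, and it makes activated stellate cells contract. B-type natriuretic peptide (NPPB), best known from the stressed heart, signals through NPR1, a guanylate cyclase that makes cyclic GMP; NPR2 is the cyclase receptor for C-type natriuretic peptide, and NPR3 binds and clears natriuretic peptides. Angiotensin II, whose precursor is angiotensinogen and whose last step is made by ACE, acts through AGTR1 and is a known stimulus of stellate cell contraction and fibrosis.

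YAP and TAZ work through DNA-binding partners, so promoter sequence is shown for EDN1 and NPR3, which are among the members that changed after an siRNA. The promoter set used here held no window for NPPB, the member that changed most. Each line is the 250 bases before a RefSeq start on GRCh38.p14, 5′ to 3′ in the direction of the gene, with matches to the TEAD word GGAATG, searched on both strands, in capitals (CATTCC where it is on the other strand). The EDN1 window nearest to the annotated gene is chr6:12290111-12290360 (plus strand), that of an upstream EDN1 start is chr6:12289764-12290013 (plus strand), and the NPR3 window shown, 1 of 2, is chr5:32710399-32710648 (plus strand).
EDN1 nearest start: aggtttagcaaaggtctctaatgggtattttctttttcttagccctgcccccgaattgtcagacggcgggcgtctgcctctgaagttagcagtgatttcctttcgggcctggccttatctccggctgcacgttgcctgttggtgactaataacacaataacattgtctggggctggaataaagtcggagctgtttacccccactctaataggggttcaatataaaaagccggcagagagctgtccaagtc
EDN1 upstream start: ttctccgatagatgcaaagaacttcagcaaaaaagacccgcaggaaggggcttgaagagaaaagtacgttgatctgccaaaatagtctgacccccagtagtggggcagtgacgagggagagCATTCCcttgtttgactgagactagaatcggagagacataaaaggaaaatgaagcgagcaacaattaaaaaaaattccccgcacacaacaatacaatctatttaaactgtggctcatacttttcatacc
NPR3: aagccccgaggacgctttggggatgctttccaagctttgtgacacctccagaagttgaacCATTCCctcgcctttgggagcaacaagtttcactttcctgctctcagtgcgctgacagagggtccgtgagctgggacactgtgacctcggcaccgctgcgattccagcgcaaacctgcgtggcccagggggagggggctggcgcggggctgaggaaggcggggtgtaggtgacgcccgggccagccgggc

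The nearest EDN1 window had no match, nor had the NPR3 window nearer to the annotated start of that gene, chr5:32690622-32690871, which is not printed. The word lay 129 bases before the upstream EDN1 start and 190 bases before the NPR3 start shown, and in 1 window of EDNRB, a gene with almost no counts. The promoter set used here held windows for 6 of the 8 genes, and none for NPPB and AGTR1. There were 13 windows in all, of which 3 held the word. Among 35116 windows of the same length over all genes 11.9% held it, so a match is only a description of the letters. The AP-1 words TGACTCA and TGAGTCA, searched on both strands, were in 0 of the 13 windows and in 4.2% of all windows.

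The libraries held 16498508 to 18752805 counts in genes, and 15560 genes were tested. CPM is used here for counts scaled to library size with TMM factors. A floor of 3 counts, which covers counting error only, corresponds to 0.157 to 0.177 CPM per library. Reads in no annotated gene took 4.73% to 5.13% of the siNT libraries, 6.01% to 7.49% of the siYAP libraries and 5.53% to 5.63% of the siTAZ libraries. YAP1 stood at 209 ± 4.11 CPM with siNT, 26.3 ± 1.49 with siYAP and 170.0 ± 8.01 with siTAZ, and WWTR1 at 62.0 ± 5.50, 75.8 ± 0.522 and 9.53 ± 0.917 CPM (SD, n = 3), so each target was lowest after its own siRNA. Each siRNA also changed the other target in the test described below. YAP1 was called lower after siTAZ, and WWTR1 was called higher after siYAP.

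After siYAP both peptide genes fell steeply, EDN1 7.97-fold and NPPB 14-fold, NPR3 fell 2.17-fold, and EDNRA rose 1.77-fold. After siTAZ, NPR3 fell 2.44-fold, and EDN1 and NPPB rose 1.13-fold each, in calls that were lost when single libraries were left out. Calls are made where edgeR's quasi-likelihood test (two-sided) gave a Benjamini-Hochberg adjusted p under 0.05 over all tested genes. After siYAP 4 of the 7 tested members were called, 1 higher and 3 lower, in a comparison where 67.1% of all tested genes were called, 33.8% higher and 33.4% lower. After siTAZ 3 of the 7 were called, 2 higher and 1 lower, where 34.6% of all genes were called, 16.4% higher and 18.2% lower. Between siTAZ and siYAP 4 of the 7 differed, 2 higher and 2 lower after siTAZ, where 66.2% of all genes differed, 33.0% higher and 33.2% lower. AGTR1, 1 of the 2 lower, met the filter only through its siYAP libraries, and its call was lost when single libraries were left out.

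These counts are near the background, so the number of members called is no result about them. The median absolute log2 fold change after siYAP was 0.83 over the 7 tested members and 0.45 over all tested genes, and after siTAZ it was 0.18 and 0.19. The members were chosen with earlier results of these data known, so the larger siYAP median is no result about them either. It is the value of EDNRA, a gene with small counts. With the sign kept, the members' median was -0.09 after siYAP and -0.05 after siTAZ, and that of all genes was 0.02 and 0.01. In bulk RNA, fewer cells that make a transcript and less transcript per cell cannot be told apart.

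**Figure D1:**
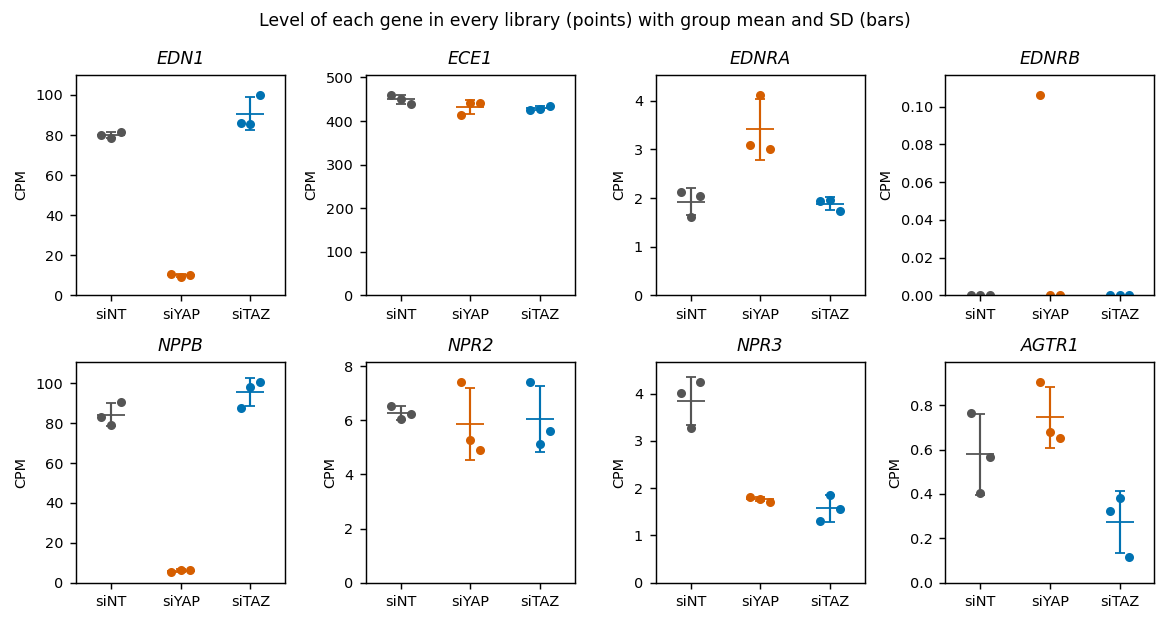
Level of each of the 8 genes in CPM (vertical axes, from 0) in the 3 libraries of each siRNA group (points), with the group mean and SD (bars) for the 7 tested genes; EDNRB, with 2 counts in all, has points only. EDN1 and NPPB are low in the 3 siYAP libraries, NPR3 is low after both targeting siRNAs, and EDNRA is high after siYAP.

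EDN1 (ENSG00000078401; chromosome 6, 12290363 to 12297194, plus strand, GENCODE 29 on GRCh38) encodes the precursor of endothelin-1. Its level was 80.1, 78.5 and 81.7 CPM in the siNT libraries, 10.6, 9.24 and 10.3 CPM in the siYAP libraries and 86.0, 85.7 and 100.1 CPM in the siTAZ libraries. The siYAP values lie far below all others, and the siTAZ values lie just above those after siNT. In counts these are 1358, 1364 and 1444 after siNT and 199, 177 and 175 after siYAP. The log2 fold change after siYAP was -2.99 (SE 0.08; edgeR, adjusted p = 8.73e-43).

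The siTAZ change of EDN1 was 0.18 on the log2 scale (SE 0.06; edgeR, adjusted p = 0.0142). Without siNT replicate 2 the adjusted p was 0.0666, and without siTAZ replicate 3, the highest library, the log2 fold change was 0.10 and the adjusted p 0.247. Compared directly, EDN1 was 9.01-fold higher after siTAZ than after siYAP (log2 3.17; edgeR, adjusted p = 2.20e-44).

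ECE1 (ENSG00000117298; chromosome 1, 21217247 to 21345572, minus strand) encodes the metalloprotease that activates endothelin-1. Its level was 461, 449.9 and 438 CPM with siNT, 413, 442 and 441 with siYAP and 425, 429 and 435 with siTAZ. The siNT and siYAP values overlap, and the siTAZ values lie slightly below those after siNT. Its log2 fold change did not pass the test after siYAP, at -0.06 (95% interval of the fit -0.12 to 0.01; edgeR, adjusted p = 0.122), nor after siTAZ, at -0.07 (-0.13 to 0.00; adjusted p = 0.120). The siYAP difference passed without siNT replicate 3 (log2 -0.09, adjusted p = 0.0442) and with no filter (adjusted p = 0.0424). An antisense gene overlaps 240 exonic bases of ECE1, and whether the counting used strand is not known.

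EDNRA (ENSG00000151617; chromosome 4, 147480917 to 147544954, plus strand) encodes ETA, the endothelin receptor of contractile cells. It stood at 2.12, 1.61 and 2.04 CPM with siNT, 3.09, 4.12 and 3.02 with siYAP and 1.95, 1.97 and 1.73 with siTAZ. All siYAP values lie above all others, and those after siNT and siTAZ overlap. The counts behind them are small, 36, 28 and 36 after siNT and 58, 79 and 51 after siYAP. The rise was 0.83 on the log2 scale (SE 0.28; edgeR, adjusted p = 0.00678), and without siYAP replicate 2 it was 0.66, with an adjusted p of 0.0602. After siTAZ the log2 difference was -0.03 (95% interval -0.62 to 0.56; edgeR, adjusted p = 0.954), and the level was 1.81-fold lower than after siYAP (adjusted p = 0.00504).

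EDNRB (ENSG00000136160; chromosome 13, 77895481 to 77975529, minus strand), the gene of the ETB receptor, had 2 counts in siYAP replicate 1 and 0 in the other 8 libraries. It was thus not detected above the floor of 3 counts in any library, and no comparison was made.

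NPPB (ENSG00000120937; chromosome 1, 11857464 to 11858931, minus strand) encodes B-type natriuretic peptide and changed more than any other member. It stood at 83.2, 79.3 and 90.5 CPM in the siNT libraries, 5.21, 6.47 and 6.44 in the siYAP libraries and 87.7, 98.2 and 101 in the siTAZ libraries. The siYAP values lie far below all others, and the siNT and siTAZ values overlap. In counts these are 1412, 1379 and 1598 after siNT and 98, 124 and 109 after siYAP. The log2 fold change after siYAP was -3.80 (SE 0.08; edgeR, adjusted p = 3.98e-46).

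After siTAZ the log2 fold change of NPPB was 0.18 (SE 0.06; edgeR, adjusted p = 0.0137). The call was lost without siNT replicate 1 (adjusted p = 0.0550), siNT replicate 2 (0.129), siTAZ replicate 2 (0.0690) or siTAZ replicate 3 (0.106). Without siNT replicate 2 or siTAZ replicate 3, NPR3 was the 1 member still called after siTAZ. Compared directly, NPPB was 15.8-fold higher after siTAZ than after siYAP (log2 3.98; edgeR, adjusted p = 1.83e-47).

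**Figure D2:**
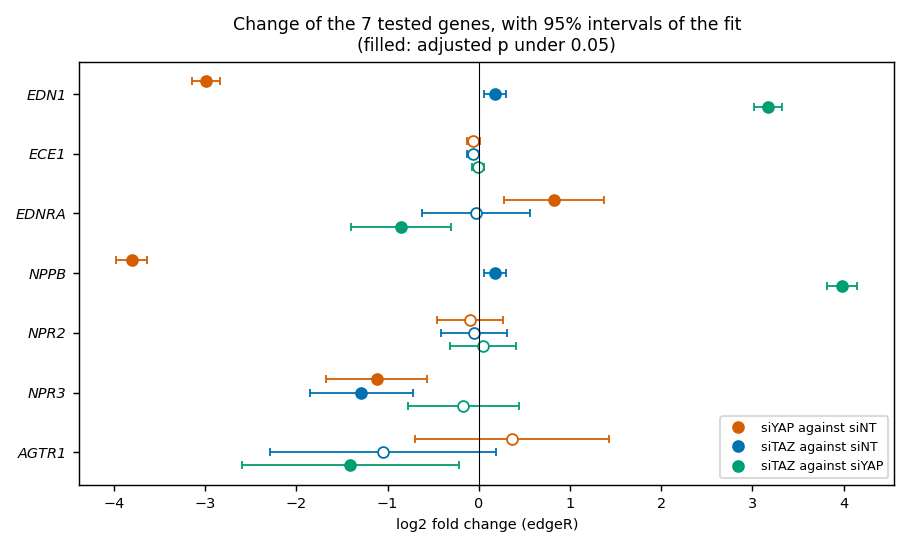
Log2 fold change from edgeR (horizontal axis) of the 7 tested genes in the 3 comparisons, with 95% intervals of the fit; filled points passed at an adjusted p under 0.05. After siYAP, EDN1 lies at -2.99 and NPPB at -3.80, and NPR3 has filled points below 0 in both comparisons with siNT.

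NPR3 (ENSG00000113389; chromosome 5, 32689070 to 32791724, plus strand) encodes the receptor that clears natriuretic peptides. Its levels were 4.01, 3.28 and 4.25 CPM with siNT, 1.81, 1.77 and 1.71 with siYAP and 1.30, 1.86 and 1.56 with siTAZ. Both knockdown groups lie below every siNT library and overlap each other. The log2 fold change was -1.12 after siYAP (SE 0.28; edgeR, adjusted p = 0.000305) and -1.29 after siTAZ (SE 0.28; adjusted p = 0.000157). Both comparisons share the siNT libraries. Between the knockdowns the log2 difference was -0.17, with a 95% interval of -0.77 to 0.44 (edgeR, adjusted p = 0.640), which allows a difference of either sign.

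NPR2 (ENSG00000159899; chromosome 9, 35792154 to 35809732, plus strand) encodes the receptor for C-type natriuretic peptide. It had 6.54, 6.04 and 6.23 CPM with siNT, 7.40, 5.27 and 4.91 with siYAP and 7.42, 5.13 and 5.60 with siTAZ. The 3 groups overlap, with 1 high library in each knockdown group. The log2 difference from siNT was -0.09 after siYAP (95% interval -0.46 to 0.27; edgeR, adjusted p = 0.657) and -0.05 after siTAZ (-0.41 to 0.31; adjusted p = 0.866). SPAG8, on the opposite strand, overlaps 329 exonic bases of NPR2.

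AGTR1 (ENSG00000144891; chromosome 3, 148697784 to 148743008, plus strand) encodes the type 1 angiotensin receptor and had few counts. They were 13, 7 and 10 in the siNT libraries, 17, 13 and 11 in the siYAP libraries and 6, 7 and 2 in the siTAZ libraries, or 0.578 ± 0.182, 0.744 ± 0.139 and 0.274 ± 0.140 CPM (SD, n = 3). In CPM the siNT and siYAP values overlap, and the siTAZ values lie below both. Neither comparison with siNT passed, with a log2 difference of 0.37 after siYAP (95% interval -0.70 to 1.43; edgeR, adjusted p = 0.556) and -1.04 after siTAZ (-2.28 to 0.19; adjusted p = 0.197).

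The AGTR1 level after siTAZ was 2.66-fold lower than after siYAP (edgeR, adjusted p = 0.0326). The gene met the filter only through its siYAP libraries, the group where it was highest. The call was lost without siYAP replicate 1 (adjusted p = 0.119), siYAP replicate 2 (0.0526), siTAZ replicate 1 (0.0565) or siTAZ replicate 3 (0.161), and with no filter (0.0820).

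Levels of different genes were compared per kilobase of annotated exon, a scale that depends on the GENCODE 29 gene models. After siNT the order was NPPB at 122 ± 8.13 CPM per kb, ECE1 at 61.3 ± 1.51, EDN1 at 39.4 ± 0.803, NPR2 at 1.62 ± 0.0656, EDNRA at 0.454 ± 0.0646, NPR3 at 0.390 ± 0.0510 and AGTR1 at 0.166 ± 0.0524 (SD, n = 3). The libraries of EDNRA and NPR3 overlapped, and those of the other neighbours did not. The peptide and enzyme genes thus stood above every receptor gene of the list.

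After siYAP the order was ECE1 at 58.9 ± 2.28 CPM per kb, NPPB at 8.71 ± 1.04, EDN1 at 4.95 ± 0.354, NPR2 at 1.52 ± 0.348, EDNRA at 0.804 ± 0.146, AGTR1 at 0.214 ± 0.0400 and NPR3 at 0.179 ± 0.00484 (SD, n = 3). AGTR1 and NPR3 differed by less than the SD of AGTR1. After siTAZ the order was that of siNT, from NPPB at 138 ± 9.95 to AGTR1 at 0.0788 ± 0.0404 CPM per kb (SD, n = 3).

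**Figure D3:**
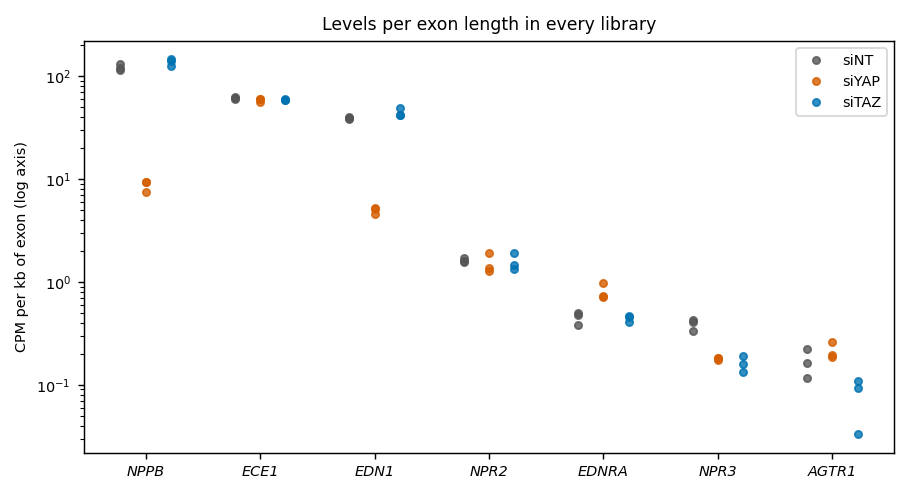
Level per kilobase of exon (CPM per kb, log axis) of the 7 tested genes in every library, ordered by the siNT mean and coloured by siRNA group. NPPB leads after siNT and siTAZ and lies below ECE1 after siYAP; EDNRB is not drawn because 8 of its 9 values are 0.

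The genes closest in pattern to each member whose group means spanned at least 1 on the log2 scale were found by the root mean square difference of centred log2 CPM over the 9 libraries. For EDN1 they were TAGLN, which encodes the actin-binding protein transgelin (difference 0.14), at 561, 80.7 and 782 CPM after siNT, siYAP and siTAZ, and the annexin gene ANXA3 (0.14), at 66.2, 9.17 and 89.9 CPM. For NPPB they were MEST, an imprinted gene (0.24), at 205, 17.0 and 183 CPM, and IDH1, which encodes cytosolic isocitrate dehydrogenase (0.24), at 114, 10.9 and 135 CPM.

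NPR3 was closest to BMPER, which encodes a secreted regulator of bone morphogenetic proteins (difference 0.13), at 59.3, 27.7 and 23.7 CPM, and KLHL2 (0.16), at 31.3, 15.5 and 11.8 CPM. AGTR1, with few counts per library, was closest to ARFIP1 (0.25), at 40.4, 48.1 and 19.3 CPM, and DST (0.30), at 351, 428 and 215 CPM.

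The rest of the endothelin system had few counts. Of its 9 listed genes 3 were tested, all of them members. Of the other endothelin genes, EDN3 had 0 counts, and EDN2 had 3, 5 and 4 counts after siNT and 19 over the 9 libraries. The converting enzyme relatives ECE2, ECEL1 and KEL were also below the filter. ECE2 shares 2965 of its 4729 exonic bases with another protein-coding gene on the same strand, so its low count is uncertain.

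In the natriuretic peptide system 7 of 10 listed genes were tested. After siYAP 1 rose and 3 fell (median log2 fold change -0.09), and after siTAZ 2 rose and 2 fell (median -0.05), where 67.1% of all tested genes were called after siYAP and 34.6% after siTAZ. The number that rose after siTAZ was 1 without siNT replicate 1, siNT replicate 2, siTAZ replicate 2 or siTAZ replicate 3. NPR1, the cyclase receptor for B-type peptide, had 12, 36 and 25 counts with siNT, 3, 2 and 3 with siYAP and 12, 18 and 20 with siTAZ. The siYAP counts are at or below the floor and lie under all others, and those after siNT and siTAZ overlap. NPR1 fell after siYAP (edgeR, adjusted p = 4.29e-06), from 1.40 ± 0.682 to 0.147 ± 0.0381 CPM (SD, n = 3), and the size of that fall is poorly determined. Its log2 difference after siTAZ was -0.59 (adjusted p = 0.337).

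MME encodes neprilysin, a protease that degrades natriuretic peptides and endothelin-1. Its level was 167, 182 and 166 CPM with siNT, 302, 353 and 322 with siYAP and 109.9, 109 and 96.4 with siTAZ, and no groups overlap. It rose after siYAP (log2 0.92, SE 0.05; edgeR, adjusted p = 9.89e-13), fell after siTAZ (log2 -0.71, SE 0.06; adjusted p = 1.36e-09), and was 3.10-fold lower after siTAZ than after siYAP (adjusted p = 5.17e-17). An antisense gene overlaps MME.

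FURIN encodes a protease that cuts hormone precursors. It rose 1.51-fold after siTAZ, from 156 ± 4.29 to 234 ± 1.14 CPM (SD, n = 3; edgeR, adjusted p = 4.45e-20). Its log2 difference after siYAP was -0.07 (adjusted p = 0.112; 0.0382 without siYAP replicate 3). NPPA, which encodes atrial natriuretic peptide and overlaps CLCN6 on the opposite strand, had 3, 3 and 11 counts with siNT, 12, 9 and 16 with siYAP and 12, 2 and 14 with siTAZ. It passed in neither comparison with siNT (edgeR, adjusted p = 0.137 and 0.476), but without siNT replicate 3 the siYAP difference passed (log2 1.91, adjusted p = 0.0412). NPPC, OSTN and CORIN, the gene of a protease that activates natriuretic peptides, were not tested.

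In the angiotensin system 11 of 18 listed genes were tested. After siYAP 5 rose and 4 fell (median log2 fold change 0.21), and after siTAZ 3 rose and 3 fell (median 0.13), where 67.1% of all tested genes were called after siYAP and 34.6% after siTAZ. With upper-quartile scaling 5 rose after siTAZ, as AGTRAP (edgeR, adjusted p = 0.0358) and PREP (0.0439) then passed. AGT, which encodes the precursor angiotensinogen, was at 1.12, 1.67 and 1.19 CPM with siNT, 2.61, 4.91 and 3.49 with siYAP and 1.14, 2.29 and 1.04 with siTAZ. The siYAP libraries lie above the rest. The rise was 1.46 on the log2 scale (SE 0.32; edgeR, adjusted p = 5.37e-05), and the log2 difference after siTAZ was 0.17 (adjusted p = 0.756). ACE, the gene of the angiotensin converting enzyme, passed in neither comparison with siNT (edgeR, adjusted p = 0.225 and 0.515).

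AGTRAP, whose product binds the type 1 angiotensin receptor, rose 2.59-fold after siYAP, from 14.2 ± 1.09 to 36.8 ± 1.71 CPM (SD, n = 3; edgeR, adjusted p = 6.55e-21). After siTAZ it was at 16.8 ± 0.249 CPM (adjusted p = 0.0544; 0.0334 without siNT replicate 2). ANPEP, the aminopeptidase N gene, rose 2.75-fold after siYAP (edgeR, adjusted p = 1.10e-14) and fell after siTAZ (log2 -0.53, adjusted p = 0.00699; 0.0556 without siNT replicate 1). NLN, the gene of the peptidase neurolysin, fell 2.86-fold after siYAP, from 71.1 ± 2.04 to 24.9 ± 0.809 CPM (SD, n = 3; edgeR, adjusted p = 1.49e-29), and 1.36-fold after siTAZ (adjusted p = 3.88e-08).

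The other genes of this list moved less. ATP6AP2, which encodes an accessory protein of the vacuolar proton pump, rose after both siRNAs, by 0.43 and 0.26 on the log2 scale, as did the aminopeptidase gene LNPEP, by 0.21 and 0.30. The oligopeptidase gene THOP1 fell after both, with log2 fold changes of -0.47 and -0.16, and without siNT replicate 3 the latter had an adjusted p of 0.128 (edgeR). PREP, which encodes prolyl endopeptidase, fell after siYAP (log2 -0.31) and did not pass after siTAZ (log2 0.13; edgeR, adjusted p = 0.0847). PRCP, a carboxypeptidase gene, fell after siYAP (log2 -0.14; edgeR, adjusted p = 0.00832) and rose after siTAZ (log2 0.35; adjusted p = 1.54e-08). The fall of PRCP did not pass without siNT replicate 3, at an adjusted p of 0.0621, nor without siYAP replicate 3, at 0.0745. AGT, ACE, LNPEP, PREP and PRCP overlap other annotated genes, so their counts are uncertain.

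Downstream of ETA and the type 1 angiotensin receptor, all 20 listed genes of Gq and receptor signalling were tested. After siYAP 7 rose and 10 fell (median log2 fold change -0.13), and after siTAZ 3 rose and 6 fell (median -0.02), against 67.1% and 34.6% of all tested genes called in either direction. PLCB4, a phospholipase C gene, fell 4.14-fold after siYAP and 2.01-fold after siTAZ, from 64.2 ± 4.16 to 15.5 ± 1.31 and 31.8 ± 2.75 CPM (SD, n = 3; edgeR, adjusted p = 1.92e-32 and 3.42e-18). RGS4 and RGS5 encode proteins that switch off G proteins. RGS4 fell 3.46-fold after siYAP, from 101 ± 4.12 to 29.1 ± 2.78 CPM (SD, n = 3; edgeR, adjusted p = 2.94e-29). RGS5, which overlaps another annotated gene on the same strand, rose 4.68-fold, from 3.98 ± 0.299 to 18.6 ± 1.32 CPM (SD, n = 3; edgeR, adjusted p = 3.89e-21).

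ITPR3, the gene of a calcium release channel, which overlaps UQCC2 on the opposite strand, rose 2.40-fold after siYAP (edgeR, adjusted p = 1.60e-39). ARRB1, a beta-arrestin gene that overlaps an antisense gene, was 2.58-fold lower after siTAZ than after siYAP (edgeR, adjusted p = 2.24e-30). After siTAZ the receptor kinase gene GRK5 fell (log2 -0.64; edgeR, adjusted p = 4.65e-10) and GNAQ, which encodes a Gq alpha subunit, rose (log2 0.27; adjusted p = 1.21e-06). ITPR1, which also overlaps an antisense gene, had a log2 fold change of -0.27 after siTAZ (edgeR, adjusted p = 0.0451). That call was lost when any 1 of 6 libraries was left out, with an adjusted p of 0.0727 (siNT replicate 1), 0.180 (siNT replicate 2), 0.050 (siYAP replicate 2), 0.0520 (siYAP replicate 3), 0.155 (siTAZ replicate 2) and 0.168 (siTAZ replicate 3). It was also lost with upper-quartile scaling (0.0627), no filter (0.0633), DESeq2 (0.0576), limma-voom (0.0548) and a fit on the 2 groups alone (0.0577).

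For cyclic GMP, the messenger made by NPR1 and NPR2, 8 of 11 listed genes were tested. After siYAP 1 rose and 3 fell (median log2 fold change -0.08), and after siTAZ 2 fell and the other 6 did not pass (median -0.37), against 67.1% and 34.6% of all tested genes called. PDE1C, a phosphodiesterase gene, fell 6.82-fold after siYAP and 1.54-fold after siTAZ, from 68.6 ± 4.0 to 10.0 ± 0.759 and 44.5 ± 0.919 CPM (SD, n = 3; edgeR, adjusted p = 1.37e-39 and 9.27e-12). PDE5A and PDE9A encode phosphodiesterases specific for cyclic GMP, and fell 2.16-fold and 3.35-fold after siYAP (edgeR, adjusted p = 2.86e-14 and 4.86e-10). After siTAZ PDE9A did not pass in the main fit, in 6 of the 9 fits without a library or in 6 of the 8 other alternatives. It passed as higher after siTAZ without siYAP replicate 1 (edgeR, adjusted p = 0.0446), siYAP replicate 3 (0.0480) or siTAZ replicate 2 (0.00656), with upper-quartile scaling (0.0420) and in the fit on 2 groups (0.0329). PDE2A, which encodes a phosphodiesterase that cyclic GMP stimulates, rose 1.88-fold after siYAP and fell 2.02-fold after siTAZ (edgeR, adjusted p = 1.15e-05 and 7.65e-05). PDE2A and PDE5A overlap other annotated genes.

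Among 23 other vasoactive peptide and receptor genes 11 were tested. After siYAP 2 rose and 5 fell (median log2 fold change -0.65), and after siTAZ 3 fell and the other 8 did not pass (median -0.01), against 67.1% and 34.6% of all tested genes called. Without siNT replicate 1, siTAZ replicate 1 or siTAZ replicate 3, 1 gene of the list passed as higher after siTAZ. OXTR, the gene of the Gq-coupled oxytocin receptor, was at 233, 215 and 233 CPM with siNT, 24.3, 25.6 and 25.3 with siYAP and 185, 176 and 194 with siTAZ. The 3 groups do not overlap. It fell 9.06-fold after siYAP and 1.23-fold after siTAZ (edgeR, adjusted p = 5.52e-54 and 2.32e-08), and was 7.37-fold higher after siTAZ than after siYAP (adjusted p = 1.91e-51).

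PTH1R, the parathyroid hormone receptor gene, fell 7.72-fold after siYAP (edgeR, adjusted p = 9.03e-18) and 1.49-fold after siTAZ (adjusted p = 0.0110; 0.104 without siTAZ replicate 3). PTHLH, which encodes a ligand of that receptor and overlaps an antisense gene, rose 2.39-fold after siYAP (edgeR, adjusted p = 1.06e-05). BDKRB2, a bradykinin receptor gene that overlaps another annotated gene, rose 2.54-fold after siYAP (edgeR, adjusted p = 3.67e-16). After siTAZ it did not pass in the main fit, in 7 of the 9 fits without a library or in the 8 other alternatives. It passed as higher after siTAZ without siNT replicate 1 (edgeR, adjusted p = 0.0413) or siTAZ replicate 3 (0.0212). ADM, which encodes the vasodilator adrenomedullin, fell 1.65-fold after siTAZ, from 59.2 ± 5.05 to 36.0 ± 2.24 CPM (SD, n = 3; edgeR, adjusted p = 1.42e-13).

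Endothelin-1 is chiefly an endothelial product and B-type natriuretic peptide a cardiac one, so markers of other cell types were read in the same libraries. Of 12 stellate and mesenchymal markers 11 had counts and 9 reached a group mean of 1 CPM. COL1A1 was at 4168 ± 38.3 CPM after siNT (SD, n = 3), and DCN and DES stayed below 1 CPM on average in every group. LRAT, the retinoid storage enzyme gene of quiescent stellate cells, had no counts. The 8 endothelial markers summed to 55.9 to 60.6 CPM per library after siNT, 117 to 132 after siYAP and 23.2 to 24.1 after siTAZ, mostly TIE1. Of the 6 endothelial markers tested, 3 rose after siYAP and 3 fell, where 67.1% of all tested genes were called. Those that rose were TIE1, from 44.1 to 113 CPM on average, PECAM1, from 0.519 to 6.39, and KDR, from 1.29 to 3.09. Those that fell were CDH5, from 5.21 to 0.364, TEK, from 6.51 to 4.28, and VWF, from 0.882 to 0.191, while ERG was at 0.0384 CPM with siNT and 0 in the other groups. The 8 cardiomyocyte markers include NPPA, and MYH7, TNNT2 and ACTN2 among them reached a group mean of 1 CPM. The 8 summed to 6.54 to 9.38 CPM with siNT, 9.50 to 11.6 with siYAP and 7.36 to 13.0 with siTAZ. Of the 5 of them that were tested, 1 rose and 1 fell after siYAP, and 1 rose and 1 fell after siTAZ. After siYAP ACTN2 went from 3.79 to 7.45 CPM on average and TNNT2 from 1.21 to 0.132. MYH7 varied within groups, with 1, 51 and 13 counts after siNT and 28, 0 and 18 after siYAP.

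The summed levels of the smooth muscle and stellate lists had the same order of groups as EDN1 and NPPB, but their members did not move as one. The 7 smooth muscle markers, all with counts and TAGLN among them, summed to 795 to 825 CPM with siNT, 332 to 358 with siYAP and 999 to 1083 with siTAZ. Most of that sum was TAGLN with siNT and siTAZ, at 561 and 782 CPM; after siYAP 2 of the 7 rose, ACTA2 and SMTN, and 4 fell. The stellate markers summed to 6268 to 6368, 3875 to 3941 and 9396 to 9562 CPM, mostly COL1A1. Of the 10 of them that were tested, 4 rose after siYAP, COL1A2 and HGF among them, and 5 fell (median log2 fold change 0.28). The hepatocyte markers summed to 1.90 to 2.0, 12.8 to 16 and 0.866 to 2.19 CPM, nearly all of it SERPINA1, with ALB, APOA1, APOB, TTR, HNF4A and CYP3A4 at or near 0. The 7 leukocyte markers summed to 13.4 to 14.7, 16.6 to 18.2 and 10.0 to 13.0 CPM, mostly CD14. Of the 4 of them that were tested, 2 rose and 1 fell after siYAP, and 0 rose and 1 fell after siTAZ. After siYAP PTPRC went from 2.60 to 0.147 CPM on average, ITGAM from 0.365 to 4.11 and CSF1R from 0.789 to 2.74. The 5 cholangiocyte markers summed to 50.2 to 52.6, 79.9 to 83.1 and 68.5 to 72.5 CPM, nearly all SOX9. RGS5 is both a stellate marker here and a gene of the Gq list. The numbers of markers that rose or fell stand beside 67.1% of all tested genes called after siYAP and 34.6% after siTAZ. Those numbers are no result about cell types. The part of these markers in the results was not tested.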

How the data were processed

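Gene counts per library were deposited by the authors as whole-number counts, 1 file per library with no header. Per the submitters' processing notes, STAR 2.5.0c, HTSeq, Trim Galore, Picard and SAMtools were used, and the build named is mm10, although all gene IDs are human; annotation and strand setting are not given in the sources used here. Symbols came from a gene name table (36366 of 36601 IDs) and GENCODE 29 (219), which also gave positions and exon lengths. Lines for reads in no gene or in several were left out of library sizes.

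The counts were fitted in R 4.3.3 with edgeR 4.0.16 (quasi-likelihood test, TMM scaling, filterByExpr with a minimum count of 10 and total of 15) over all 9 libraries, with 3 contrasts and Benjamini-Hochberg adjustment over 15560 genes. The method was tested on simulated data in which few genes changed and all genes had the same spread. That simulation does not show how the method does where most genes are called, as after siYAP. Depth was 16498508 to 18752805 counts per library. Standard errors and intervals were derived from the F statistic, and folds are those of the fit. The fit draws each gene's spread towards that of other genes (median prior degrees of freedom 55.3). A standard error is thus not the gene's own replicate spread alone. Intervals used the same t quantile for all genes.

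The members and lists were chosen with earlier results of these data known. All 8 members were named, every tested gene of the 3 peptide systems, up to 4 called genes per comparison with the largest change in the other pathway lists (average log2 CPM of at least 1), and the 2 nearest patterns per member (average log2 CPM of at least 3). Alternatives were other scaling (RLE, upper-quartile), other filters, a replicate block, fits on 2 groups, DESeq2 1.42.0, limma-voom (limma 3.58.1) and leaving out each library.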

Additional observations from a re-analysis of the deposited data

How the results depend on the processing

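Over 17 alternatives, 9 of which left out a library, the members gave 353 values. Of these, 339 kept their side of the threshold, 12 lost and 2 gained a call, and 0 changed sign where either fit passed. Differences that passed in neither fit could change sign. That of EDNRA between siTAZ and siNT ran from -0.14 to 0.05 on the log2 scale over the left-out libraries. After siTAZ the number of members called was 1 without siNT replicate 2 or siTAZ replicate 3, and ran from 1 to 3 over the left-out libraries; after siYAP it ran from 3 to 5, and for siTAZ against siYAP from 3 to 4. Upper-quartile scaling gave 2865 genes higher and 2616 lower after siTAZ, against 2559 and 2832. No AGTR1 value was had with a CPM of at least 1 in 3 libraries, or for siTAZ against siNT in the fit on those 2 groups. With the replicate block 4, 3 and 4 members were called after siYAP, after siTAZ and between those 2, and 2552 genes were higher and 2861 lower after siTAZ. Deviations of same-numbered libraries correlated at -0.0305 to 0.0136 and those of other pairs at -0.0213 to 0.0233. No pairing by number was seen, but counting noise can hide one, so a pairing is not excluded. Depth limits EDNRB, AGTR1, NPR1 and NPPA most, where single counts move the level.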
